A study of Homo sapiens with 30 samples.

Results

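The cytosolic ribosomal protein genes were described here across ChIP-seq peak lists of MDA-MB-231 cells, an established human triple-negative breast cancer line. They were chosen by name from the GENCODE annotation of GRCh37, as protein-coding genes whose symbol is RPL or RPS followed by digits and at most 1 of the letters A, X or L, with RPSA, RPLP0, RPLP1 and RPLP2 added. The rule gave 81 of 20090 protein-coding genes on the autosomes and chromosome X, of which 32 encode proteins of the small (40S) subunit and 49 proteins of the large (60S) subunit. The rule used no measured value. It also caught 4 paralogs (RPL3L, RPL10L, RPL39L and RPS27L), which are counted with the rest and reported by name.

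Parental cells, the line before editing, were immunoprecipitated for SAP30, SIN3A, SIN3B, RNA polymerase II (Pol II), trimethylated histone H3 lysine 4 (H3K4me3) and acetylated histone H3 lysine 9 (H3K9Ac). SAP30-KO1 cells, in which SAP30 was disrupted by CRISPR/Cas9, were immunoprecipitated for Pol II, H3K4me3 and H3K9Ac. According to the study's methods the knockout line was a mixture of several single-cell clones, so a difference between the lines cannot be told apart from a difference between clones. Each of the 9 groups held 2 libraries, and the labels do not say whether these came from separate cultures. SAP30, SIN3A and SIN3B had no list from SAP30-KO1 cells, and a peak list cannot show the edited SAP30 allele, so the knockout itself was not checked here.

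Ribosomal proteins assemble with ribosomal RNA into the 2 subunits of the ribosome, and their genes are among the most heavily transcribed by Pol II in growing cells. Most of them start transcription within a run of pyrimidines, a TCT initiator in place of the common initiator, and their messenger RNAs therefore begin with a terminal oligopyrimidine tract through which mTOR signalling controls translation. SIN3A and SIN3B are scaffolds of histone deacetylase complexes, and SAP30 is a subunit of these complexes. H3K4me3 and H3K9Ac mark promoters of active genes.

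The start sequences were read from GRCh37 to show this initiator. Each line below gives 70 bases before and 20 bases from the annotated start of the gene's canonical transcript, on the gene's own strand and 5′ to 3′. Capitals mark a run of at least 5 pyrimidines that covers the annotated start, and any CTTT that begins within 10 bases of it. RPL12, RPL10A and RPL3 are shown as the genes with the best Pol II ranks in parental cells, RPS3 and RPL19 as those with the largest poorer and RPL9 as that with the largest better Pol II difference in SAP30-KO1 cells among ranks that did not overlap, and RPS27L and RPL39L as the paralogs with a promoter peak.
RPL12 (chr9:130213666-130213755, minus strand): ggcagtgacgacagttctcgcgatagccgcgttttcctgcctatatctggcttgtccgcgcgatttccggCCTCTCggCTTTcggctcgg
RPL10A (chr6:35436108-35436197, plus strand): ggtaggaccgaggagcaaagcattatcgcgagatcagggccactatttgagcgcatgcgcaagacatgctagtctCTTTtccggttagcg
RPL3 (chr22:39715609-39715698, minus strand): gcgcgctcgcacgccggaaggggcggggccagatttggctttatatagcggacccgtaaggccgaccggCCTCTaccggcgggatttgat
RPS3 (chr11:75110492-75110581, plus strand): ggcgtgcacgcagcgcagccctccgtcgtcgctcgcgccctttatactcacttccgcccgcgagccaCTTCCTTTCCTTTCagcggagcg
RPL19 (chr17:37356466-37356555, plus strand): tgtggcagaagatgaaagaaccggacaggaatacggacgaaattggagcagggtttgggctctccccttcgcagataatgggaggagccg
RPL9 (chr4:39460523-39460612, minus strand): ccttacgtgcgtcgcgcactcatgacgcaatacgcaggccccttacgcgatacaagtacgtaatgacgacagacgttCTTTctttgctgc
RPS27L (chr15:63449657-63449746, minus strand): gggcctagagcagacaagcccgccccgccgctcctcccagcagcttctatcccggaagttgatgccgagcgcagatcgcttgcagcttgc
RPL39L (chr3:186857265-186857354, minus strand): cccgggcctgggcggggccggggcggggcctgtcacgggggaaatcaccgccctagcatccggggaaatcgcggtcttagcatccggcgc

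In RPS3 the run was 14 bases long, from 3 bases before the annotated start, and in RPL12 it was 6 bases long and began at the start itself. RPL10A and RPL9 had a CTTT downstream of the annotated start without a run over it. RPL19 and both paralogs had neither feature in this window. Of the 81 genes, 61 had a pyrimidine run over the start against 7.84% of all coding genes, and 57 had CTTT near it against 8.75%. Both features together were present at 52 ribosomal protein genes, 2.47% of all coding genes and 2 of the 78 mitochondrial ribosomal protein genes. Where a run of any length covered the start, its median length among the ribosomal protein genes was 12 bases and the longest was 25 bases. None of the 4 paralogs had either feature. The first transcribed base was C at 62 of the 81 genes and at 10.8% of all coding genes.

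Other motifs were searched on both strands in the window from 250 bases before to 50 bases after the start. The ETS-family core CCGGAAG was in 28 of the 81 windows and in 14.0% of all coding windows, and it was in 32 of the 78 mitochondrial ribosomal protein windows. The YY1 core AAGATGGC was in 10 windows against 4.03% of all, and in 22 mitochondrial ribosomal protein windows. GGGCGG of the SP and KLF family was in 50 windows against 61.0% of all, TATAAA in 7 against 9.80%, and the E-box CACGTG in 5 against 8.75%. A match of letters is a description and not evidence of a bound factor. The 52 genes with both start features and the 29 lacking at least 1 of them, of which 26 had Pol II peaks, were compared for Pol II in parental cells, where the median rank was 5.99% and 5.04% in the libraries of replicate 1 and replicate 2 for the former and 7.01% and 4.51% for the latter.

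The 81 genes lay on 21 chromosomes, 12 of them on chromosome 19. They were short, with a median length of 5548 bp against 27256.5 bp for all coding genes. Another coding gene started within 1000 bp at 20 of them, on the opposite strand at 17, and a peak there cannot be given to either gene alone.

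The data were lists of peak summits, each with a score equal to the −log10 of its q-value. The lists held 10861 to 54622 summits. Depth is not in the lists and is unknown here, and the score grows with depth, so each summit was placed only by its rank within its own list, from 0% for the best to 100% for the poorest. A gene had a promoter peak where a summit lay within 1000 bp of a start site, and its best-ranked such summit was used. The lowest score in any list was 1.302, a q-value of 0.0499, so weaker enrichment is absent from the lists and a gene without a peak is one where no enrichment was called. Peak names in the Pol II and H3K4me3 lists carry a tag of 20 or 20perc that the other lists lack. Its meaning, the control each list was called against and the treatment of reads with several places to align are not given in the sources used here, and each could bear on a rank or a missing peak. ChIP on a population of cells does not tell fewer cells with a peak from less signal in each cell. The identity of the line was checked with fixed marker lists. All 6 mesenchymal markers (VIM, CD44, AXL, CAV1, FOSL1, LOX) had a Pol II promoter peak in both libraries of either line, and of the 6 luminal markers (ESR1, PGR, GATA3, FOXA1, CDH1, EPCAM) EPCAM alone had one, although H3K4me3 peaks were present in both parental libraries at 5 of these 6.

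In parental cells, 78 of the 81 genes had a Pol II promoter peak in both libraries, against 57.7% of all coding genes. SAP30 and SIN3B also occupied 78 each in both libraries, against 61.2% and 51.7% of all coding genes. H3K4me3 was present at 77 against 63.8%, and H3K9Ac at 77 against 61.4%. SIN3A was detected at fewer, 51 in both libraries against 31.5% of all coding genes, with 14 more in 1 library. In SAP30-KO1 cells the counts were again 78 for Pol II (53.9% of all coding genes), with H3K4me3 at 77 (62.8%) and H3K9Ac at 77 (61.1%). SAP30, SIN3A and SIN3B were together, each in both libraries, at 51 genes against 30.2% of all coding genes. With every list cut to its best 10861 summits, the length of the shortest, SIN3A was still at 51 genes in both parental libraries (31.1% of all coding genes), SAP30 at 68 (44.9%), SIN3B at 74 (37.0%) and Pol II at 78 (47.2%). A promoter peak was present in all 18 lists at 51 of the 81 genes against 28.6%.

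No list held a promoter peak at 3 genes, RPL3L and RPL10L among them. Both are paralogs known from striated muscle and testis. The summit nearest to RPL3L lay 3014 to 9999 bp away, and the nearest to RPL10L 59977 to 1398589 bp away. RPL23A had an H3K4me3 peak in 1 of 2 libraries of each line and an H3K9Ac peak in 1 of 2 libraries of each line, and in the other libraries the nearest summit was 2352 to 2591 bp away.

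**Figure D1:**
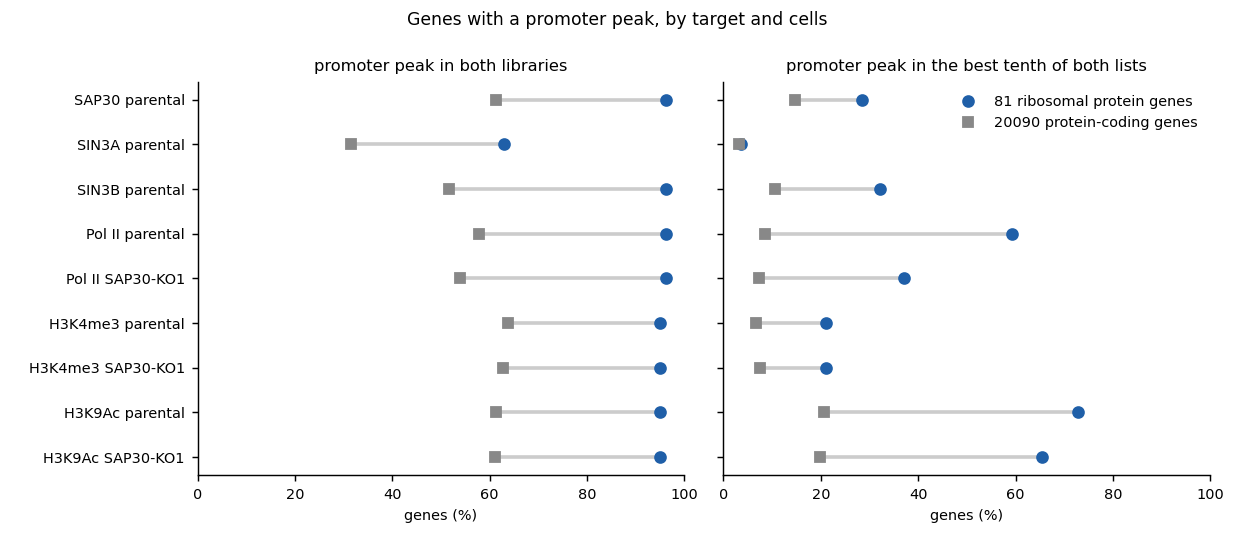
Share of genes (%, horizontal axes) with a promoter peak in both libraries (left) and with a promoter peak among the best 10% of both lists (right), for the 9 groups of target and cells. Circles are the 81 ribosomal protein genes and squares the 20090 protein-coding genes, and the gap is widest for Pol II and H3K9Ac in the right panel and closes for SIN3A, where 3 of the 81 genes stand against 3.14%.

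The ribosomal protein genes carried some of the best-ranked Pol II and H3K9Ac peaks of these cells. In parental cells 48 of the 81 had a Pol II peak in the best 10% of both lists, against 8.49% of all coding genes, and 59 had an H3K9Ac peak there, against 20.6%. For SIN3B the count was 26 against 10.7%, for SAP30 23 against 14.7%, and for H3K4me3 17 against 6.62%. For SIN3A it was 3 against 3.14%, a share near that of all genes. In SAP30-KO1 cells the Pol II count was 30 against 7.39%, that of H3K9Ac 53 against 19.9% and that of H3K4me3 17 against 7.45%. Among genes with a peak in both libraries, 29.5% of the ribosomal protein genes and 24.0% of all coding genes were in the best 10% for SAP30, whereas for parental Pol II the shares were 61.5% and 14.7%. Leaving out 1 library cannot lower these counts, since 1 list is then enough. Without replicate 2 the H3K4me3 count was 37 in parental and 29 in SAP30-KO1 cells, and the SIN3B count was 55. Of the genes with a peak in the library kept, these were 47.4%, 37.7% and 70.5%, beside 21.6%, 18.9% and 28.5% of all coding genes with a peak there. The SIN3A count was 8 without replicate 1 and 7 without replicate 2. In the same way these were 15.1% and 11.1%, beside 15.3% and 15.5%.

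Median ranks gave the size of these differences. In the libraries of parental cells, the median rank of the ribosomal protein promoter peaks was 6.51% and 4.93% for Pol II, where that of all coding genes with a peak was 27.2% and 24.8%. For H3K9Ac it was 4.17% and 5.13% beside 12.1% and 12.5%, and for H3K4me3 11.7% and 19.5% beside 24.2% and 26.1%. For SIN3B it was 7.34% and 12.6% beside 20.6% and 21.3%. SAP30 differed less, with 14.1% and 13.0% beside 17.1% and 17.6%, and for SIN3A the libraries differed in direction, with 38.4% and 36.8% beside 37.0% and 37.4%. Promoter peaks of all coding genes also ranked better than the middle of every list. Ranked among promoter summits of coding genes alone, where 50% is the middle, the median was 11.1% for Pol II, 19.9% for H3K9Ac, 26.3% for SIN3B, 31.3% for H3K4me3, 40.2% for SAP30 and 50.5% for SIN3A in parental cells, and fewer genes were then in the best 10% of both lists. The H3K9Ac count was 13 against 4.07% of all coding genes, that of Pol II 28 against 4.16%, SIN3B 9 against 3.59%, SAP30 5 against 4.54%, H3K4me3 3 against 2.26% and SIN3A 1 against 2.11%.

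**Figure D2:**
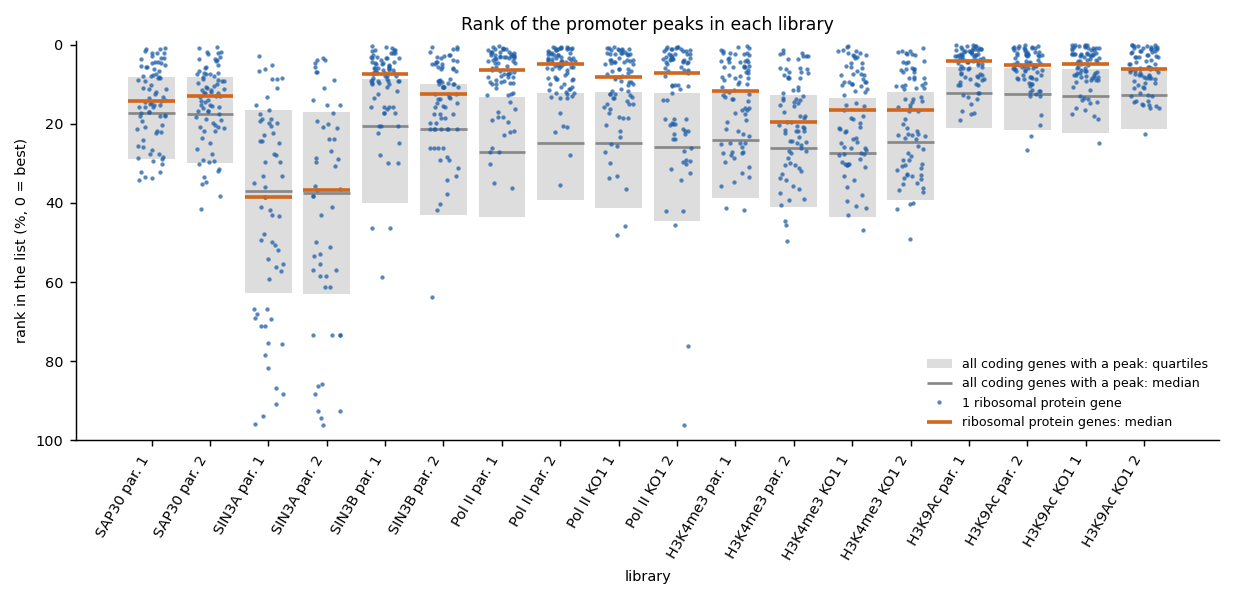
Rank of the best promoter summit (%, vertical axis, 0 at the top is best) in each of the 18 libraries, with a point for each ribosomal protein gene with a peak, its median as an orange line, and the quartiles and median of all coding genes with a peak in grey. The Pol II medians lie above the grey boxes, from 4.93% to 8.18%, the H3K9Ac medians of 4.17% to 6.14% lie above or at the top of them, and the SIN3A medians of 38.4% and 36.8% lie on the coding medians of 37.0% and 37.4%.

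Pol II peaks ranked best at RPL12 (0.449% and 0.515% in the parental libraries), RPL10A (0.550% and 0.596%) and RPL3 (1.10% and 0.561%). RPL12 lies at the base of the ribosomal stalk, RPL10A forms the L1 stalk and RPL3 reaches towards the peptidyl transferase centre. The poorest Pol II ranks among the genes with a peak were those of RPL22 (35.0% and 35.5%), RPL21 (36.1% and 20.5%) and RPL34 (27.2% and 27.8%). At RPL12, RPL10A and RPL3 the Pol II ranks in both SAP30-KO1 libraries were poorer than in either parental library. These ranks were 0.548% and 0.572% for RPL12, 0.748% and 1.58% for RPL10A and 1.28% and 1.304% for RPL3. RPL22 is a 60S protein with the paralog RPL22L1, and its other marks ranked well, with 5.52% and 8.07% for H3K4me3 and 4.42% and 2.92% for H3K9Ac.

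The 3 best H3K9Ac ranks included RPL10A (0.403% and 0.205%) and RPL27A (0.0622% and 0.757%), and the poorest were at RPL36A (16.7% and 26.7%), RPL34 (17.6% and 23.2%) and RPL35A (17.3% and 20.3%). H3K4me3 ranked best at RPS21 (0.760% and 2.22%), RPLP2 (3.41% and 1.39%) and RPL18 (3.49% and 2.83%). Its poorest ranks were at RPL36A (41.8% and 49.7%), RPL39L (41.4% and 40.5%) and RPL41 (33.5% and 45.5%). RPL36A, a 60S protein encoded on chromosome X, was thus among the 3 poorest for both histone marks as well as for SAP30 and SIN3B.

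SAP30 ranked best at RPSA (2.05% and 0.516%), RPL4 (0.950% and 1.82%) and RPS29 (2.02% and 0.776%). RPSA is the 40S protein also known as the laminin receptor precursor. SAP30 ranked poorest at RPL41 (33.4% and 38.2%), RPS9 (34.2% and 31.8%) and RPL36A (33.6% and 30.2%). SIN3B ranked best at RPS18 (0.749% and 0.594%), RPLP2 (0.373% and 1.07%) and RPS14 (1.37% and 0.538%), and poorest at RPL39L (58.7% and 40.2%), RPL36A (46.4% and 37.8%) and RPL37A (10.7% and 63.7%). The 2 libraries disagreed widely for RPL37A. The SAP30 summits lay upstream of the start at RPL4 (−523 and −480 bp) and RPS29 (−321 and −346 bp), as did the SIN3B summits at RPS18 (−284 and −293 bp). A coding gene starts within 1000 bp on the opposite strand at each of them, namely ZWILCH, LRR1 and VPS52 in turn. These peaks cannot be given to either gene alone. SIN3A ranked best at RPL5 (6.02% and 3.79%), RPS29 (6.77% and 6.97%) and RPLP2 (5.10% and 8.96%). Its poorest ranks were at RPS27 (90.8% and 88.2%), RPL26 (81.8% and 92.5%) and RPS14 (69.3% and 92.5%), so RPS14 was among the best for SIN3B and among the poorest for SIN3A.

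The 3 proteins of the P stalk, which recruits the GTPases of translation to the 60S subunit, all had peaks in the 18 lists. Pol II ranked 0.979% and 0.752% at RPLP0, 2.75% and 0.730% at RPLP1 and 8.13% and 13.3% at RPLP2 in parental cells. SAP30 ranked 3.25% and 3.89% at RPLP0, 4.53% and 5.71% at RPLP1 and 2.101% and 2.45% at RPLP2. The SAP30 summits of RPLP2 lay upstream of its start, at −532 and −515 bp, as did its SIN3B summits at −500 and −552 bp, whereas its Pol II summits lay 18 and 11 bp downstream.

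Of the paralogs with peaks, RPS27L (a gene known as p53-inducible) had Pol II ranks of 26.1% and 10.8% in parental cells and SAP30 ranks of 6.06% and 7.25%. RPL39L had Pol II ranks of 12.4% and 6.12%, SAP30 ranks of 15.3% and 15.5% and H3K4me3 ranks of 41.4% and 40.5%. Neither was in the best 10% of both lists for Pol II or H3K4me3.

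**Figure D3:**
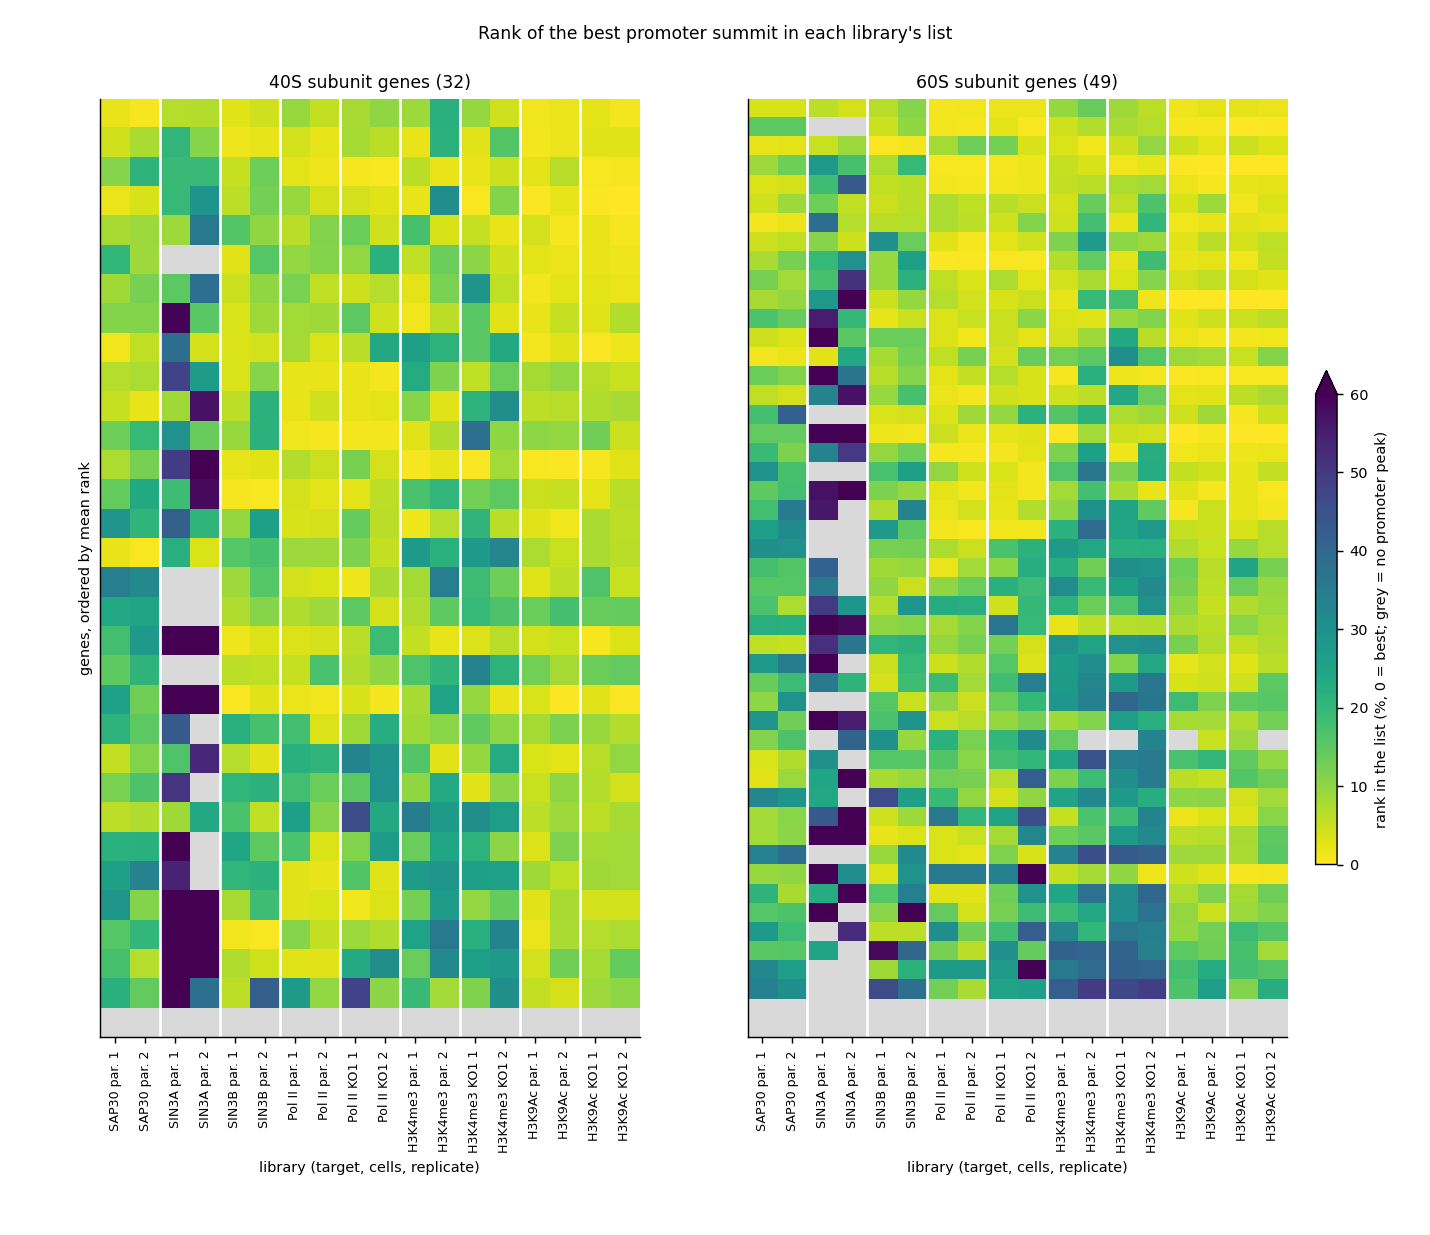
Rank of the best promoter summit of each ribosomal protein gene (rows, 40S left and 60S right, each ordered by the mean rank over the lists that hold it) in each of the 18 libraries (columns, 2 for each group). Yellow is the best rank, dark purple 60% or poorer, and grey no promoter peak. The lowest rows, 3 in all, are grey throughout, and grey and purple cells gather in the SIN3A columns.

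Members varied between replicates to an extent that limits single ranks. Across the genes with a peak in both libraries, the median difference between replicates was 1.70 percentage points for H3K9Ac, 2.05 for Pol II, 3.79 for SAP30, 5.01 for SIN3B, 7.45 for H3K4me3 and 21.1 for SIN3A in parental cells. In SAP30-KO1 cells it was 6.17 for Pol II, 1.76 for H3K9Ac and 5.44 for H3K4me3. The SIN3A lists were the shortest, and their ranks agreed poorly also over all coding genes, with a Spearman correlation of 0.45 over 6320 genes.

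The genes without SIN3A detection still had SAP30, SIN3B and Pol II. Of the 16 genes with no SIN3A peak in either library, 3 had no peak of any kind and the other 13 had SAP30 and SIN3B peaks in both libraries. Among them were RPL3, RPL10, RPL13A, RPL23, RPL29, RPL34, RPL36A, RPL39, RPL41, RPS9, RPS20 and RPS26. The SAP30 peak at these 13 ranked at a median of 26.7% and 29.4%, at the 14 with SIN3A in 1 library 17.9% and 16.8%, and at the 51 with SIN3A in both 8.41% and 9.95%. The same order was present over all coding genes (34.3% and 37.0%, 20.5% and 21.3%, 8.52% and 8.75%). Pol II ranks did not follow it, with medians of 7.22% and 4.91% at the 13 genes without SIN3A, 15.3% and 7.78% at the 14 and 4.71% and 4.35% at the 51, whereas over all coding genes they were 43.5% and 38.7% without SIN3A and 19.96% and 17.9% with it. The lowest scores of the SIN3A lists were 1.34 and 1.31, and a weaker SIN3A peak at these genes would not be listed.

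SIN3A was detected in both libraries at 23 of 32 40S genes and 28 of 49 60S genes, a difference that was not tested. For the other 5 targets in parental cells the shares of the subunits were near each other, between 93.9% and 96.9%. Median ranks in parental cells were 6.93% and 3.89% for Pol II at the 40S genes and 5.79% and 5.45% at the 60S genes. Between targets, ranks of the same genes were loosely related. Over the ribosomal protein genes with both peaks the Spearman correlation of mean ranks was 0.59 between SAP30 and SIN3A (51 genes), 0.53 between H3K4me3 and H3K9Ac (77), 0.40 between Pol II and H3K9Ac (77), 0.27 between SAP30 and SIN3B (78) and 0.00 between SAP30 and Pol II (78). Over all coding genes the last was 0.40. These values share promoters and libraries and are given as descriptions.

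Summits fell at distinct places. Pol II summits sat on the start site, at a median of 19 bp and 17.5 bp downstream in the parental libraries, and 93.6% and 97.4% lay within 100 bp of a start, against 67.2% and 68.0% for all coding genes with a peak. H3K4me3 summits lay further into the gene, at a median of 252.5 bp and 239 bp downstream, where those of all coding genes lay at 161 bp and 168 bp. H3K9Ac summits lay at 217 bp and 217.5 bp, beside 193 bp and 189 bp. SAP30 summits lay at 57.5 bp and 79 bp, beside 55 bp and 47 bp, and SIN3A summits at 65 bp and 41 bp, beside 40 bp and 29 bp. SIN3B summits lay upstream of the start at a median of −54.5 bp and −8.5 bp, whereas those of all coding genes lay downstream at 4 bp and 47 bp. Taken gene by gene, the SIN3B summit was downstream of the SAP30 summit at 17.9% and 30.8% of the 78 genes, with a median offset of −178.5 bp and −55 bp. For all coding genes with both peaks the median offset was −37 bp and −7 bp. The replicates differed in this offset by more than its size in replicate 2. With a single annotated start for each gene in place of all its starts, the medians moved to 117.25 bp for SAP30, 99 bp for SIN3A and 37.75 bp for Pol II.

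**Figure D4:**
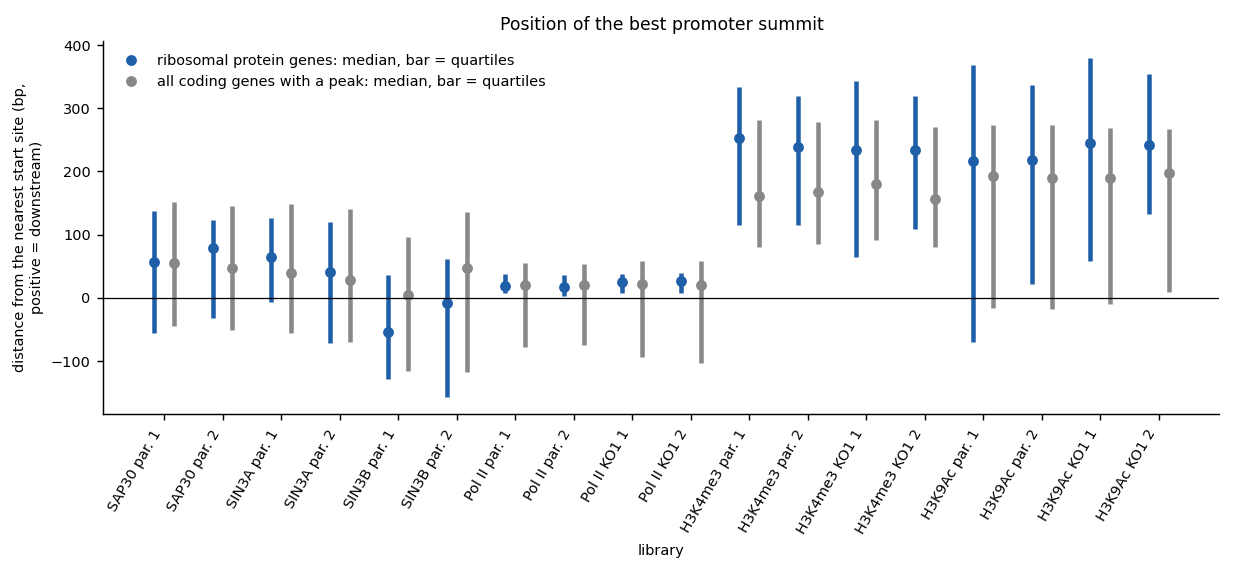
Distance of the best promoter summit from the nearest start site (bp, positive downstream) in each library, as the median (point) and quartiles (bar) of the ribosomal protein genes in blue and of all coding genes with a peak in grey. Blue Pol II bars are short and lie just downstream of 0, H3K4me3 medians lie at 234 to 252.5 bp against 156 to 180 bp in grey, and SIN3B medians are below 0.

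The comparison of SAP30-KO1 with parental cells asked whether these peaks depend on SAP30. No ribosomal protein gene lost its Pol II, H3K4me3 or H3K9Ac promoter peak, where lost means present in both parental and in neither SAP30-KO1 library, and none gained one. Over all coding genes 270 (1.34%) lost and 27 (0.134%) gained a Pol II peak, and 184 (0.916%) and 21 (0.105%) an H3K4me3 peak. For H3K9Ac these were 85 (0.423%) and 66 (0.329%). With shares this small, a gene set of this size would hold few such genes or none. The absence of lost and gained peaks thus does not set the ribosomal protein genes apart. With a window of 500 bp, H3K4me3 was gained at RPL35A and H3K9Ac at 2 genes, RPLP2 among them. Of all coding genes 0.358% and 0.657% gained these peaks at that window. The parental lists held summits beyond that window, at 609 and 590 bp for H3K4me3 at RPL35A and at −933 and −602 bp for H3K9Ac at RPLP2. In the SAP30-KO1 lists they lay at 354 and 356 bp and at 332 and 306 bp. Ranks were then compared at the genes with a peak in all 4 libraries of a target. A rank was called better or poorer where both SAP30-KO1 ranks lay beyond both parental ranks, and with 2 libraries against 2 the smallest two-sided p of the exact permutation test for a single gene is 0.33, so no single difference could pass 0.05.

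For Pol II, 26 of 78 genes were poorer in both SAP30-KO1 libraries, where 24.2% of all coding genes were, and 4 were better, where 15.4% of all coding genes were. The median change in mean rank was 1.65 percentage points at the ribosomal protein genes and 1.48 over all coding genes, a positive value being poorer in SAP30-KO1. Poorer ranks were more frequent among all coding genes with good parental ranks. Among the 56 ribosomal protein genes whose parental mean rank was in the best 10%, 22 were poorer and 3 better, and among all coding genes of that range 33.0% were poorer and 12.5% better, with median changes of 1.21 and 1.23. The median changes were thus nearly equal, the poorer share of 39.3% stood beside 33.0%, and the better share of 5.36% stood beside 12.5%. These shares are descriptions with no test. Poorer ranks were found at 20 of 47 tested 60S genes and 6 of 31 tested 40S genes. Leaving out 1 library gave 32 to 47 poorer and 8 to 18 better genes, since fewer ranks then have to agree, while 33.0% to 46.8% of all coding genes were poorer and 22.2% to 35.7% better. Without parental replicate 1 there were 43 poorer genes (40.3% of all coding genes) and 8 better (22.2%), and without parental replicate 2 there were 32 (33.0%) and 13 (30.7%). Without SAP30-KO1 replicate 1 there were 47 (46.8%) and 18 (30.7%), and without SAP30-KO1 replicate 2 there were 40 (39.8%) and 15 (35.7%).

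RPS3, a 40S protein near the entry of the messenger RNA channel, had the largest difference among the genes whose ranks did not overlap. Its Pol II ranks were 2.98% and 2.58% in the parental and 23.4% and 30.2% in the SAP30-KO1 libraries. RPL19 had 2.91% and 2.69% in parental and 13.1% and 29.4% in SAP30-KO1 cells, RPL38 had 8.06% and 11.2% against 36.4% and 19.7%, and RPL26 had 3.43% and 4.96% against 8.18% and 32.4%. At each of these 4 genes the SAP30-KO1 ranks did not reach the parental ranks, but the SAP30-KO1 libraries differed from each other by 6.85 to 24.2 percentage points. RPS3 lies on the long arm of chromosome 11, as does RPS25 with Pol II ranks of 22.0% and 20.8% against 33.2% and 29.1%. Over the 402 coding genes tested on that arm the median Pol II change was 9.94 percentage points and 54.5% were poorer. Without that arm 24 ribosomal protein genes were poorer and 4 better for Pol II. The part of the arm in the values of RPS3 and RPS25 was not tested. The RPS25 Pol II summits lay at −103 and 79 bp in parental and at −410 and −490 bp in SAP30-KO1 libraries, so different summits were compared. The coding gene TRAPPC4 starts within 1000 bp of the RPS25 start on the opposite strand.

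Better Pol II ranks were found, among others, at RPL9 (22.8% and 22.2% in parental, 4.36% and 20.0005% in SAP30-KO1 libraries), RPL10 (9.80% and 4.44% against 3.31% and 1.13%) and RPS2 (2.20% and 2.07% against 1.98% and 1.10%). The RPL9 summits lay at 9 and 6 bp in parental and at −215 and 65 bp in SAP30-KO1 libraries, so different summits were compared. The coding gene LIAS starts within 1000 bp of an RPL9 start on the opposite strand. RPL10 is the 60S protein that joins the subunit last, in the cytoplasm. The 2 groups were separated by 0.0858 percentage points at RPS2. The poorest SAP30-KO1 Pol II rank belonged to RPL22, with 33.7% and 96.0%, and since 33.7% was better than both of its parental ranks, its groups overlapped. RPL34 was alike, with 27.1% and 76.2% beside parental ranks of 27.2% and 27.8%.

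**Figure D5:**
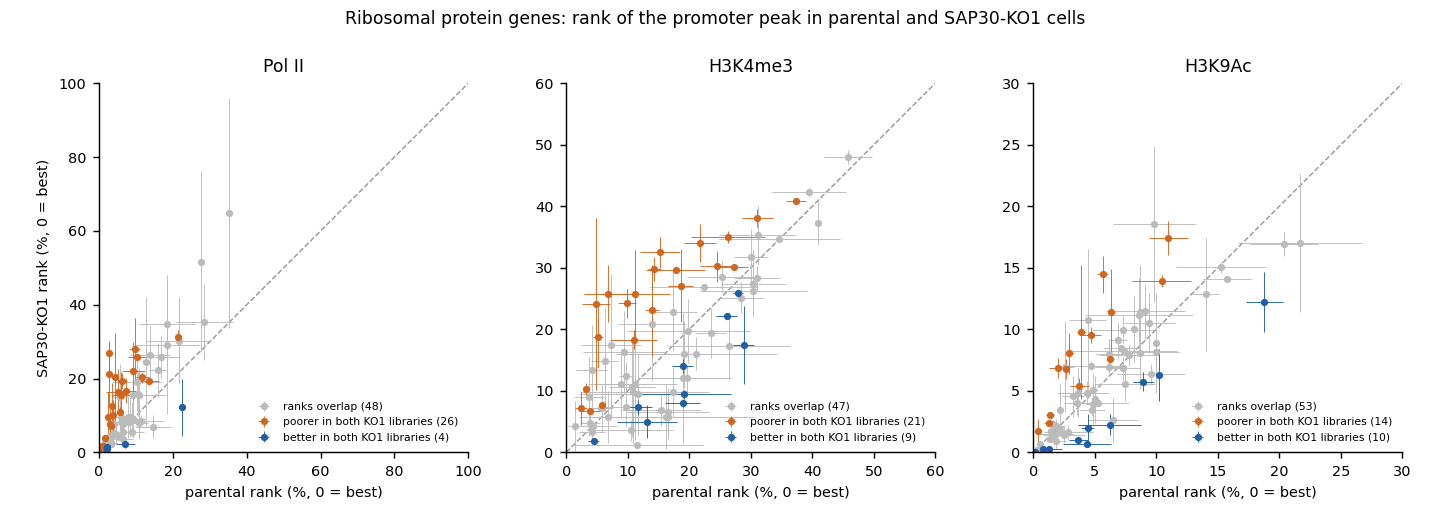
Mean rank of the promoter peak (%, 0 is best) in parental (horizontal) and SAP30-KO1 (vertical) cells for each ribosomal protein gene with a peak in all 4 libraries of Pol II, H3K4me3 or H3K9Ac, with bars from 1 replicate to the other and a dashed line of equal rank. Orange genes were poorer and blue genes better in both SAP30-KO1 libraries, namely 26 and 4 for Pol II, 14 and 10 for H3K9Ac and 21 and 9 for H3K4me3, and the axes differ between panels.

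For H3K4me3, 21 of 77 genes were poorer, where 28.1% of all coding genes were, and 9 were better, where 11.5% were. The median change was 1.28 percentage points against 2.09 over all coding genes. Among the 24 genes with a parental mean rank in the best 10%, 8 were poorer and 1 better, beside 33.6% and 6.70% of all coding genes of that range. All of these shares were near those of the other genes. The largest differences were at RPS12 (2.65% and 7.10% in parental, 38.0% and 10.2% in SAP30-KO1 libraries), RPS24 (10.8% and 2.85% against 21.1% and 30.4%), RPL30 (11.9% and 18.5% against 30.03% and 35.03%) and RPL26 (13.3% and 15.4% against 27.9% and 31.7%). Better ranks were at RPL37 (27.1% and 30.5% against 11.1% and 23.9%), RPL29 (16.1% and 21.8% against 7.45% and 8.46%), RPLP1 (11.5% and 26.8% against 10.2% and 8.72%) and RPL15 (8.25% and 17.9% against 7.71% and 2.27%). Leaving out 1 library gave 27 to 40 poorer and 15 to 31 better genes, and each of the 4 libraries moved the better count by more than 1.5 times. Without parental replicate 1 the balance turned, with 31 genes better and 27 poorer, beside 28.5% and 42.7% of all coding genes. Without parental replicate 2 there were 15 better (22.7% of all coding genes) and 40 poorer (48.5%), without SAP30-KO1 replicate 1 there were 19 (29.2%) and 33 (36.8%), and without SAP30-KO1 replicate 2 there were 21 (19.3%) and 28 (51.7%).

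For H3K9Ac, 14 of 77 genes were poorer, where 22.1% of all coding genes were, and 10 were better, where 16.4% were. The median change was 0.113 percentage points against 0.310. Among the 68 genes with a parental mean rank in the best 10%, 12 were poorer and 8 better, beside 26.4% and 13.6% of all coding genes of that range. Poorer ranks were at RPL30 (6.12% and 5.22% in parental, 15.97% and 12.95% in SAP30-KO1 libraries), RPL11 (9.38% and 12.5% against 18.8% and 16.1%), RPL24 (3.53% and 4.30% against 4.37% and 15.2%) and RPS25 (3.31% and 2.55% against 6.40% and 9.68%). RPL11 binds 5S ribosomal RNA with RPL5, and as a free protein it is known to bind MDM2. RPS25 lies on the long arm of chromosome 11, where the median H3K9Ac change of 470 coding genes was 5.09 percentage points, and its part in this value was not tested. The RPS25 H3K9Ac summits lay at 217 and −665 bp in the parental libraries and at −629 bp in both SAP30-KO1 libraries. Better ranks were, among others, at RPL35A (17.3% and 20.3% against 14.6% and 9.75%) and RPL17 (10.1% and 10.4% against 4.19% and 8.39%). RPL32 was also better (3.64% and 8.77% against 1.38% and 3.13%). The RPL17 H3K9Ac summits lay at −158 and −137 bp in parental and at 253 and −277 bp in SAP30-KO1 libraries. Different summits were thus compared at RPL17. Leaving out 1 library gave 24 to 32 poorer and 20 to 29 better genes, and each of the 4 libraries moved both counts by more than 1.5 times. The balance turned without parental replicate 1, with 29 genes better and 24 poorer beside 33.99% and 37.4% of all coding genes. It also turned with ranks taken among coding genes that had a peak in all 4 libraries, with 15 better and 11 poorer beside 19.2% and 19.3%. Without parental replicate 2 there were 20 better (29.4% of all coding genes) and 32 poorer (40.02%), without SAP30-KO1 replicate 1 there were 21 (31.9%) and 27 (34.99%), and without SAP30-KO1 replicate 2 there were 24 (29.2%) and 25 (40.2%).

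Across the targets, RPL13, RPL26 and RPLP0 were poorer in both SAP30-KO1 libraries for Pol II, H3K4me3 and H3K9Ac. No gene was better for all 3. RPS2 was better for both Pol II and H3K9Ac. Calls shared between targets were not counted over all coding genes, so these have no background beside them. Singly, 24.2%, 28.1% and 22.1% of all coding genes were poorer for the 3 targets. The RPL26 H3K9Ac summits lay at −639 and −641 bp in parental and at 397 and −596 bp in SAP30-KO1 libraries. A different summit was thus used in SAP30-KO1 replicate 1. RPL13 had Pol II ranks of 1.82% and 1.13% in parental and 4.29% and 3.72% in SAP30-KO1 cells, H3K4me3 ranks of 4.38% and 5.96% against 23.8% and 13.7%, and H3K9Ac ranks of 2.36% and 2.90% against 5.93% and 7.56%. It lies on the long arm of chromosome 16, where the median Pol II change of 223 coding genes was 8.29 percentage points, and the part of the arm was not tested. RPLP0 stayed near the top of each list, with Pol II ranks of 0.979% and 0.752% against 1.13% and 1.47%. RPLP2 was poorer for H3K4me3 (3.41% and 1.39% against 4.51% and 9.78%) and overlapped for Pol II and H3K9Ac, and RPSA was poorer for H3K4me3 (27.3% and 21.7% against 27.7% and 32.7%) and overlapped for the others.

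Pol II summits inside the gene, beyond 1000 bp of any start, were found at 25 and 28 of the 81 genes in the parental libraries and at 16 and 15 in the SAP30-KO1 libraries. Over all coding genes the shares were 14.1% and 16.8% in parental and 14.6% and 12.9% in SAP30-KO1 libraries. In both parental libraries such a summit was present at 21 of the 81 genes, against 12.3% of all coding genes, which are longer. RPL28 had 6 and 4 of these summits in the parental libraries and 2 in each SAP30-KO1 library, whereas RPL27A had 1 and 2 against 5 and 4. RPL27, RPL36A, RPLP0, RPS18, RPS24 and RPS29 had such summits in both parental and in neither SAP30-KO1 library, and RPL6 had the reverse. These were 6 of the 21 genes with such a summit in both parental libraries. Over all coding genes it was 323 of 2465, and 90 had the reverse. The number of summits called in a library bears on these counts, and its part was not tested.

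Genes of the ribosome that the naming rule leaves out were measured beside the 81 genes. FAU, which encodes a 40S protein fused to a ubiquitin-like protein, had Pol II ranks of 12.1% and 10.6% in parental and 30.7% and 28.1% in SAP30-KO1 libraries. RACK1, a scaffold protein of the 40S subunit, had Pol II ranks of 4.401% and 3.85% and a SAP30 peak in 1 of 2 libraries. Of the 7 genes of this list all had Pol II, SIN3B and H3K4me3 peaks in both parental libraries, and 4 had Pol II in the best 10% of both lists. For Pol II, 2 of the 7 were poorer and 1 was better in both SAP30-KO1 libraries, beside 24.2% and 15.4% of all coding genes.

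Related gene lists had most of their promoter peaks too but ranked lower for Pol II. In parental cells Pol II was present at all 78 mitochondrial ribosomal protein genes, 42 of 44 translation factor genes and 44 of 44 genes of ribosome assembly and RNA polymerase I. It was in the best 10% of both lists at 8, 14 and 6 of them, with median ranks of 27.0% and 22.9%, 17.3% and 14.7%, and 25.9% and 21.9%. H3K9Ac was in the best 10% at 22, 25 and 13. For SIN3B the mitochondrial ribosomal protein genes had medians of 4.501% and 6.03% and 48 genes in the best 10% of both lists. For SAP30 the assembly genes had medians of 2.76% and 3.24% and 31 of 44 genes in the best 10%. In SAP30-KO1 cells, Pol II was poorer at 13 of 74, 10 of 41 and 13 of 43 tested genes of these lists and better at 7, 2 and 2.

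Pseudogenes named after these genes, of which the annotation holds 1584, were counted because their sequences resemble those of the genes. At most 22 of them had a peak in both libraries of any group, for parental H3K9Ac, which was 1.39%. For parental Pol II it was 11. Of the 1501 pseudogenes away from other starts, 0 to 12 had a peak in both libraries of a group, and 2 for parental Pol II.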

How the data were processed

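The series holds 30 samples, of which 18 have a peak list. Input (8) and total histone H3 (4) samples entered no comparison. Samples were grouped by the antibody target and cell line in their labels. The lists were deposited as summits of 1 bp with a score, the −log10 of the q-value, called by the authors in each library by itself. Per the submitters' processing notes, FastQC 0.11.2, Bowtie2 2.3.3.1, Picard and MACS2 2.1.0 were used with hg19, and their options are not given in the sources used here. Deeper or better enriched libraries give more summits and higher scores, so scores were used only as ranks within a list.

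Summits were assigned with Python 3.11.15, pandas 2.3.3 and numpy 2.4.6 to start sites of basic transcripts of protein-coding genes in GENCODE release 44 lifted to GRCh37. The best-ranked summit within 1000 bp was used. The assignment and the calls were tested on simulated lists. Counts of ribosomal protein genes were set beside the share of all 20090 coding genes, with no p-value, because genes are not replicates. Sequences and motifs came from GRCh37 at the canonical start of each gene, in place of the promoter table of another build.

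The genes, gene lists and motifs were chosen with earlier results of these data known. Genes named were, for each target in parental cells, the 3 best and 3 poorest mean ranks and those lacking a peak in both libraries where at most 8, for each target in SAP30-KO1 cells the 4 largest differences in each direction among ranks that did not overlap and any lost or gained, and always the paralogs, RPLP0, RPLP1, RPLP2 and RPSA. RPL22 in SAP30-KO1 cells, RPL34, RPL13, RPS25 and RPS2 across targets, the genes with Pol II summits inside and those without SIN3A were named after their values were seen. The values of some genes are not reported here, and counts include them.

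Alternatives were windows of 500 and 3000 bp, 1 start site a gene, the better-ranked 50% of each list, lists cut to 10861 summits, a peak in either library, ranks among promoter summits or among genes with a peak in all 4 libraries, the summit nearest to a start site, removal of the chromosome 11 long arm, the replicate number as a block, and each library left out in turn. The comparison limited to genes with a parental mean rank in the best 10% was added after the data were seen.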

Additional observations from a re-analysis of the deposited data

How the results depend on the processing

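The balance of better and poorer genes turned for H3K4me3 without parental replicate 1 (31 better and 27 poorer) and for H3K9Ac without parental replicate 1 (29 and 24) and with ranks among genes that had a peak in all 4 libraries (15 and 11). The SIN3A count in the best 10% of both lists, 3 beside 3.14% of all coding genes, was 2 beside 2.87% with the 500 bp window. Of the alternative values, 216 stayed within the spread between replicates, or within 1.5 times for counts, and 69 moved further. Ranked among promoter summits of coding genes, the genes in the best 10% of both lists in parental cells were 5 for SAP30 (4.54% of all coding genes), 1 for SIN3A (2.11%), 9 for SIN3B (3.59%), 28 for Pol II (4.16%), 13 for H3K9Ac (4.07%) and 3 for H3K4me3 (2.26%), and in SAP30-KO1 cells 16 for H3K9Ac (4.17%) and 4 for H3K4me3 (2.87%). Median ranks were then 40.2%, 50.5%, 26.3%, 11.1%, 19.9% and 31.3% in the same order in parental cells, and 15.9% for Pol II, 22.3% for H3K9Ac and 32.4% for H3K4me3 in SAP30-KO1 cells. With 1 start site a gene the median distance was 117.25 bp for SAP30, 99 bp for SIN3A, 37.75 and 37.25 bp for Pol II, 299.75 and 308 bp for H3K4me3 and 323 and 330.25 bp for H3K9Ac in parental and SAP30-KO1 cells, and the H3K4me3 SAP30-KO1 median rank was 16.03%. With the summit nearest to a start it was 23.75 bp for Pol II in SAP30-KO1 cells, 235.25 and 207 bp for H3K4me3 and 217.75 and 221 bp for H3K9Ac. The 500 bp window gave median ranks of 14.8% for SAP30 and 18.2% for H3K4me3 in SAP30-KO1 cells. It also gave 1 gained H3K4me3 peak (0.358% of all coding genes) and 2 gained H3K9Ac peaks (0.657%), none of which was gained within 1000 bp. The 3000 bp window gave 16.8% for the latter H3K4me3 rank. In the better-ranked 50% of each list SIN3A was present at 23 genes in both libraries, beside 16.3% of all coding genes. The causes of these shifts were not tested. With 1 library left out, 1 list is enough for a place in the best 10%. Leaving out 1 library gave 7 to 8 genes in the best 10% for SIN3A, 30 to 55 for SIN3B, 21 to 37 for H3K4me3 in parental and 24 to 29 in SAP30-KO1 cells. For SAP30-KO1 against parental cells it gave 8 to 18 better and 32 to 47 poorer for Pol II, 15 to 31 and 27 to 40 for H3K4me3, and 20 to 29 and 24 to 32 for H3K9Ac, each with fewer ranks that must agree.

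The ranks gave no sign that the replicate numbers pair the samples, and the labels do not settle it. Ranks within a list cannot show a shift shared by a whole library. Deviations from the group means of same-numbered libraries had correlations of 0.00754 in the Pol II, −0.0187 in the H3K4me3 and −0.0136 in the H3K9Ac libraries. With the replicate number as a block, where each SAP30-KO1 library has only to lie beyond the parental library of its number, 8 genes were better and 32 poorer for Pol II, 18 and 25 for H3K9Ac and 18 and 24 for H3K4me3, while of all coding genes 22.3% and 31.9%, 23.5% and 30.1%, and 17.1% and 36.4% were. Limited to genes with a parental mean rank in the best 10%, an alternative chosen after seeing the data, 1 gene was better and 8 were poorer for H3K4me3. Depth is unknown and limits what the lists can hold. A gene without a peak may have enrichment below the threshold.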
